A study of Homo sapiens with 3 samples.

Results

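The MAGE family comprises paralogous genes, most of them on chromosome X, whose proteins share a MAGE homology domain. The MAGEA, MAGEB and MAGEC genes are cancer-testis genes. They are active in male germ cells, silent in most adult tissues through promoter DNA methylation, and reactivated in many tumours, where their peptides can be presented by HLA class I to T cells. Several MAGE proteins bind RING ubiquitin ligases, such as TRIM28 for MAGEA3, MAGEA6 and MAGEC2. MAGED1 belongs to the branch of the family that is expressed in many normal tissues and is not a cancer-testis antigen. The 10 genes described here are MAGEA1, MAGEA3, MAGEA4, MAGEA6, MAGEA9, MAGEA12, MAGEB2, MAGEC1, MAGEC2 and MAGED1, out of 19775 genes with a probe set of their own. They were taken by name, with every probe set annotated to any of them. This gave 11 probe sets, of which 9 were annotated to 1 gene and 2 to a near-identical pair of genes.

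RNA came from 3 cultures of a human metastatic hepatocellular carcinoma line, with 1 Affymetrix U133 Plus 2.0 array each. MHCC97L/CisR (CisR below) is a cisplatin-resistant and MHCC97L/DoxR (DoxR below) a doxorubicin-resistant subline, both derived from the parental line MHCC97Low, and the labels give DMEM with serum and no treatment for all 3. Drug doses and selection times were not used here, and the sources used here do not say whether a subline is 1 clone. Values are MAS5 signals in linear units. The median signal was 79.2 in the CisR, 73.3 in the DoxR and 78.5 in the parental array. Each line has a single array, so the spread between cultures is unknown, no test was possible, and precision is limited by the 3 arrays.

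Low MAS5 signals have no usable order. Signals under 76.9, the median of all values, were therefore treated as lying at that floor, and a fold against a floored value is a bound, written "at least". Differences of 2-fold or more were called. Of the 11 probe sets, 8 were above the floor on at least 1 array and were compared, and 6 were above it on all 3. In these bulk samples, fewer cells expressing a gene and less RNA per cell cannot be told apart.

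The labelled cell type was set beside marker genes. Of 12 hepatocyte markers, 9 were above the floor in the CisR, 7 in the DoxR and 10 in the parental array, with summed signals of 2545, 7241 and 16147 in that order of arrays. Against parental, 9 of 11 compared were at least 2-fold lower and 0 higher in the CisR array, and 4 of 10 lower and 1 higher in the DoxR array. Of all genes, 2.58% and 2.74% were lower, and 2.83% and 2.98% higher. The higher one was albumin (ALB), at 3115 against 1545 units, with log2 differences of 0.95 and 0.18 by other probe sets. The epithelial keratins KRT8 and KRT18 ranged over the arrays from 23132 to 26856 and from 29626 to 34849 units. E-cadherin (CDH1) had 1708 units in the CisR, 3062 in the DoxR and 798 in the parental array, 2.14-fold and 3.84-fold higher in the sublines, and EPCAM was under the floor on every array. None of 10 male germ cell markers was above the floor in the CisR or parental array, and 1 was in the DoxR array, the meiotic protein SYCP3 at 121 units. Leukocyte and endothelial markers summed to 157 and 1105 units in the CisR, 121 and 1028 in the DoxR and 125 and 1306 in the parental array. Fibroblast markers summed to 3305, 1528 and 742 units in the CisR, DoxR and parental arrays, mostly from lumican (LUM) in the sublines. COL1A1 had 511, 242 and 309 units on these arrays, while COL1A2, COL3A1 and PDGFRB lay under the floor on each. The part of these marker differences in the values below was not tested.

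The members' promoters, which the probe sets do not cover, were also compared. Promoters from the RefSeq table of build GRCh38.p14 run from 250 bases before to 50 bases after an annotated start, and 9 of the 10 members have an entry. The first entry of each gene was used. The MAGEA3 and MAGEA6 windows were identical over all 300 bases, as were those of MAGEA9 and its copy MAGEA9B. Those of MAGEA12 and its neighbour MAGEA2 had 89.6% identical positions over 308 aligned, against 60.2% over 354 for MAGEC1 and MAGEC2. Gaps count in the alignment, so windows with shifted annotated starts score lower. The first windows of MAGEA2 and MAGEA2B reached only 75.4%, although another MAGEA2 window is identical to that of MAGEA2B. These percentages therefore do not rank how alike the genes are. Shown 5′ to 3′ are the window that MAGEA3 and MAGEA6 share, the similar pair MAGEA12 and MAGEA2, whose signals are set side by side below, and MAGEB2 and MAGEC2, which differed most in the CisR array, with the letters GGATGTG or their reverse complement in capitals.
MAGEA3 promoter (chrX:152698544-152698843, plus strand, identical in MAGEA6 at chrX:152769640-152769939 on the minus strand): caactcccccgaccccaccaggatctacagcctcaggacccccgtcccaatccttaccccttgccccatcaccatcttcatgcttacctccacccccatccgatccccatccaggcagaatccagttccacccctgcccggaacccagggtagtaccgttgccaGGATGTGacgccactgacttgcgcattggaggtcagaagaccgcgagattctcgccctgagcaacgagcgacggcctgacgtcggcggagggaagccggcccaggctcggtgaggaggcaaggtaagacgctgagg
MAGEA12 promoter (chrX:152733507-152733806, plus strand): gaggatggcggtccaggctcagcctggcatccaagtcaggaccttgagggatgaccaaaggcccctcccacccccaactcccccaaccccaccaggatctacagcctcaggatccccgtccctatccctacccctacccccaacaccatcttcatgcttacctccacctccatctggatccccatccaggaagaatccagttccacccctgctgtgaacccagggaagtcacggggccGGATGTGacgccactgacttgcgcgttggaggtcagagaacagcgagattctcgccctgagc
MAGEA2 promoter (chrX:152753835-152754134, minus strand): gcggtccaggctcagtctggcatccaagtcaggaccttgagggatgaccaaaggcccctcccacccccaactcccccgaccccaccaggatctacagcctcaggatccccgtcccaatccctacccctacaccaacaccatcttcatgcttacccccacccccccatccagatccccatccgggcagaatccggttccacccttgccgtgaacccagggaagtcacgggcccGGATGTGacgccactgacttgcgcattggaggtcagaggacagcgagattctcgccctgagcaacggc
MAGEB2 promoter (chrX:30215313-30215612, plus strand): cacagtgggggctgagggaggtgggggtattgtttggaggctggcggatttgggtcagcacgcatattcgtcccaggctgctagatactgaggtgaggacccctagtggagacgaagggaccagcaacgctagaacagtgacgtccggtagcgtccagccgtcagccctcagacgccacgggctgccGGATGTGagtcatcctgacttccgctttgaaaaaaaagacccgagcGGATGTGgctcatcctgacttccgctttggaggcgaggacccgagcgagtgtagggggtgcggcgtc
MAGEC2 promoter (chrX:142205241-142205540, minus strand): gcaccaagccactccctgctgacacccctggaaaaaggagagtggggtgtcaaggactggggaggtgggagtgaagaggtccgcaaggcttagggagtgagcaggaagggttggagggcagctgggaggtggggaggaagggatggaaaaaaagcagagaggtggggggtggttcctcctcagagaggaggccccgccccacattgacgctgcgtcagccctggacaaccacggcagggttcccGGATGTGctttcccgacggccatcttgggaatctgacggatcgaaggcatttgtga

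The run GGATGTG, chosen after the sequences had been read, occurred on either strand in 8 of the 9 members' windows and in 4.29% of all 35116 promoters. MAGED1 had none. Both strands were searched in every window, CACATCC being the reverse complement, and paralogs share sequence by descent. The letters CCGGAA, a common core for ETS factors, occurred in 3 members (MAGEA3, MAGEA6 and MAGED1) and in 17.2% of all promoters. The SP1 box GGGCGG occurred in 3 (MAGEA9, MAGEC1 and MAGEC2) and in 45.0% of all promoters. The members' windows held 9 to 21 CG dinucleotides, the sites of DNA methylation, against a median of 14 over all promoters. Methylation was not measured.

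The signals of all members are given first. MAGEA3 and MAGEA6 encode nearly identical partners of the ligase TRIM28. Their shared probe set 209942_x_at had 6831 units in the CisR, 3265 in the DoxR and 6498 in the parental array. A second probe set, 214612_x_at, annotated to MAGEA6 alone, had 5025, 1934 and 4515 units on the same arrays. Both probe sets were dimmest in the DoxR array and close together in the other 2. Both names carry the suffix _x_at, which marks probes that can bind similar transcripts, so the part of MAGEA3 in the second cannot be told apart.

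MAGEA12, which lies between MAGEA3 and MAGEA6 on chromosome X, had 905 units in the CisR, 234 in the DoxR and 1702 in the parental array. MAGEA1, the founding gene of the family, had 407 units in the CisR array, 37.9 in the DoxR array, under the floor, and 149 in the parental array. The 3 arrays were thus ordered differently for the 2 genes, with the DoxR array dimmest for each. Both probe sets carry the suffix _x_at. MAGEA4 was under the floor on every array, at 23.3 units in the CisR, 28.0 in the DoxR and 21.9 in the parental array. The probe set shared by MAGEA9 and MAGEA9B was also under it, at 75.6, 7.34 and 10.2 units, though its value in the CisR array lay just below the floor.

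MAGEB2, a germ-cell gene on the short arm of chromosome X, had 520 units in the CisR, 170 in the DoxR and 160 in the parental array. The value of the CisR array lay apart from the other 2. MAGEC1 had 98.1 units in the CisR and 239 in the parental array, and its 73.5 units in the DoxR array lay just under the floor. MAGEC2, another TRIM28 partner, had 159 units in the CisR, 630 in the DoxR and 962 in the parental array by its probe set 220062_s_at, annotated to it alone. Its other probe set, 215932_at, was under the floor on each array, with 25.5, 5.22 and 3.89 units, and gave no comparison. MAGED1, an adaptor in neurotrophin receptor and apoptosis signalling, had 5615 units in the CisR, 4721 in the DoxR and 9691 in the parental array. Levels of different probe sets are not comparable, so no order between the genes is given.

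**Figure D1:**
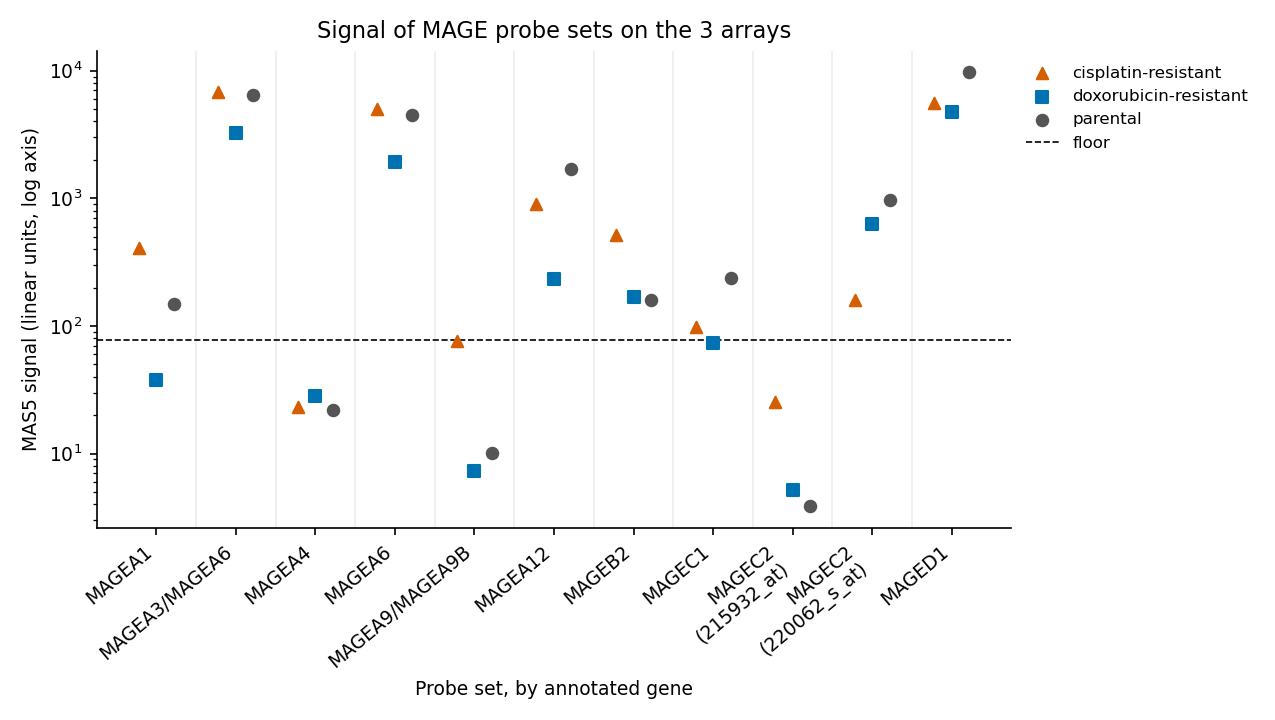
MAS5 signal (log axis) of the 11 MAGE probe sets in the CisR (triangle), DoxR (square) and parental (circle) array, 1 point per array, with the floor of 76.9 units dashed. The DoxR array is dimmest for 6 of the 8 probe sets that pass the floor on an array, and MAGEA4, MAGEA9/MAGEA9B and 1 MAGEC2 probe set lie under the floor on all 3.

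Among the 8 compared probe sets, with values under the floor set to it, the DoxR array was the dimmest of the 3 for 6 and the brightest for none. Over all 30212 probe sets above the floor on an array, it was the dimmest for 32.1% and the brightest for 31.2%. The CisR array was the dimmest only for MAGEC2 and the brightest for 4, namely MAGEA1, the MAGEA3/MAGEA6 set, MAGEA6 and MAGEB2, against 28.4% and 35.9% of all probe sets. The parental array was the brightest for MAGEA12, MAGEC1, MAGEC2 and MAGED1 and the dimmest for MAGEB2, which had 170 units in the DoxR and 160 in the parental array. Over all probe sets it was the brightest for 32.9% and the dimmest for 29.2%. These orders count differences of any size. The DoxR array lay only 1.19-fold under the CisR array for MAGED1, and at least 1.28-fold for MAGEC1, whose DoxR value was floored. The CisR array lay only 1.05-fold and 1.11-fold above parental for the MAGEA3/MAGEA6 set and MAGEA6, which are not independent.

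The comparison of the CisR subline with the parental line, made to find genes of cisplatin resistance, split the members. MAGEB2 was 3.25-fold and MAGEA1 2.73-fold higher in the CisR array, while MAGEC2 was 6.06-fold and MAGEC1 2.43-fold lower. MAGEA12 and MAGED1 were 1.88-fold and 1.73-fold lower, within 2-fold. The MAGEA3/MAGEA6 set and MAGEA6 differed by 1.05-fold and 1.11-fold. In total, 2 of 8 compared probe sets were higher and 2 lower, where 2.39% of all 29413 compared probe sets were higher and 2.34% lower. The median log2 difference was -0.36 over the members and 0.01 over all compared probe sets. Among 3 equal groups of probe sets by signal, the dimmest, which held MAGEA1 and MAGEC1, had 6.27% called in either direction, and the middle one, with MAGEB2, MAGEC2 and MAGEA12, had 5.5%.

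The comparison of the DoxR subline with the parental line, made to find genes of doxorubicin resistance, found members past 2-fold in the lower direction and none in the higher. MAGEA12 was 7.28-fold lower in the DoxR array, MAGEC1 at least 3.11-fold, MAGEA6 2.33-fold and MAGED1 2.05-fold lower. The MAGEA3/MAGEA6 set was 1.99-fold and MAGEA1 at least 1.94-fold lower, just inside 2-fold. MAGEC2 was 1.53-fold lower and MAGEB2 1.06-fold higher. Thus 4 of 8 were lower and 0 higher, where 2.39% of all 29024 compared probe sets were lower and 2.55% higher. The median log2 difference was -1.02 over the members and -0.02 over all. MAGEA6, MAGED1 and the MAGEA3/MAGEA6 set belonged to the brightest of the 3 signal groups, of which 2.75% was called in either direction. The middle group, with MAGEA12, had 5.77% called, and the dimmest, with MAGEC1, 6.29%. Both comparisons share the parental array.

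The sublines were then compared with each other, without the parental array. MAGEA1 was at least 5.30-fold lower in the DoxR than in the CisR array, MAGEA12 3.87-fold, MAGEB2 3.07-fold, MAGEA6 2.60-fold and the MAGEA3/MAGEA6 set 2.09-fold lower. MAGEC2 ran the other way and was 3.97-fold higher in the DoxR array. MAGEC1 was at least 1.28-fold and MAGED1 1.19-fold lower. This made 5 of 8 lower and 1 higher, where 2.97% of all 29105 compared probe sets were lower and 2.61% higher. The 4 compared MAGEA probe sets of the members were therefore all lower in the DoxR array in this comparison, past 2-fold in each case. All 4 carry the suffix _x_at, and the MAGEA6 and MAGEA3/MAGEA6 sets measure the same near-identical genes, so they are not independent. Probe sets shared by MAGEA2 and MAGEA2B, given below, were under the floor in both sublines and had no such comparison. By signal, the dimmest group, with MAGEA1 and MAGEC1, had 6.82% called in either direction. The middle group, with MAGEA12, MAGEB2 and MAGEC2, had 6.57% called. The brightest, with MAGEA6, MAGED1 and the MAGEA3/MAGEA6 set, had 3.35%.

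**Figure D2:**
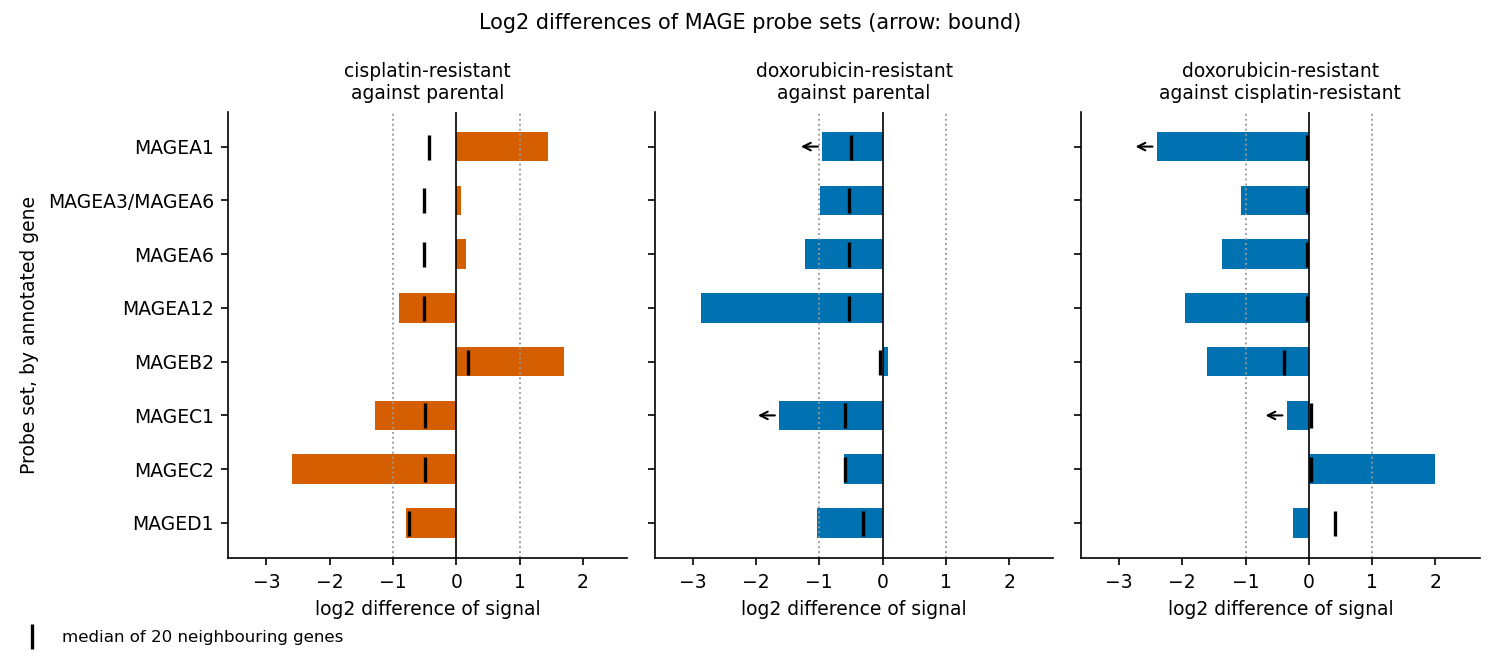
Log2 difference of floored signal for the 8 compared MAGE probe sets in each of 3 comparisons, 1 array against 1 array, with dotted lines at 2-fold, an arrow where the value is only a bound, and a tick at the median of the 20 nearest compared genes. Against parental, members lie on both sides of 0 in the CisR array, and in the DoxR array 4 are past 2-fold lower and none higher.

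All 10 members lie on chromosome X, whose other genes had a median below 0 in both sublines. The 396 compared X genes outside the family had a median log2 difference of -0.36 in the CisR array against parental, with 14.4% at least 2-fold lower, while 2.58% of all genes were. In the DoxR array the median of 401 X genes was -0.37, with 7.73% at least 2-fold lower, against 2.74% of all genes. The 10 nearest compared genes on each side gave a local level. Around MAGEA3, MAGEA6 and MAGEA12 their median was -0.52 in the CisR and -0.54 in the DoxR array, around MAGEA1 it was -0.43 and -0.50, and around MAGEC1 and MAGEC2 it was -0.49 and -0.60. Around MAGED1 it was -0.75 and -0.31, and around MAGEB2 it was 0.18 and -0.05.

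With the local median subtracted, 11 of the 14 calls of the 3 comparisons remained past 2-fold. MAGEC2 was then at -2.11, MAGEA1 at 1.88 and MAGEB2 at 1.52 in the CisR array, and MAGEA12 at -2.33 and MAGEC1 at -1.04 in the DoxR array, all log2 differences from parental. The lost calls were MAGEC1 in the CisR array, at -0.80, and MAGEA6 and MAGED1 in the DoxR array, at -0.69 and -0.72. MAGED1 in the CisR array differed from the median of its neighbours by -0.04, and MAGEC2 in the DoxR array by -0.01. Single genes near MAGEC1 and MAGEC2 also differed from parental. Of the 20, 3 were at least 2-fold lower and 1 higher in the CisR array, and 4 and 0 in the DoxR array. FGF13 was at most -3.38 in both sublines, and CT55 at most -1.92 in the CisR and at -1.84 in the DoxR array. Around MAGEB2, 1 of 20 was higher and 0 lower in the CisR array, but 4 were lower and 1 higher in the DoxR array. Among those 4 were DYNLT3 at -5.24 and SRPX at -6.03, as log2 differences of floored signal. Around MAGED1, 8 of 20 were lower in the CisR and 1 in the DoxR array, with 0 higher in either. Around MAGEA12, 1 of 20 was lower in the DoxR array.

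**Figure D3:**
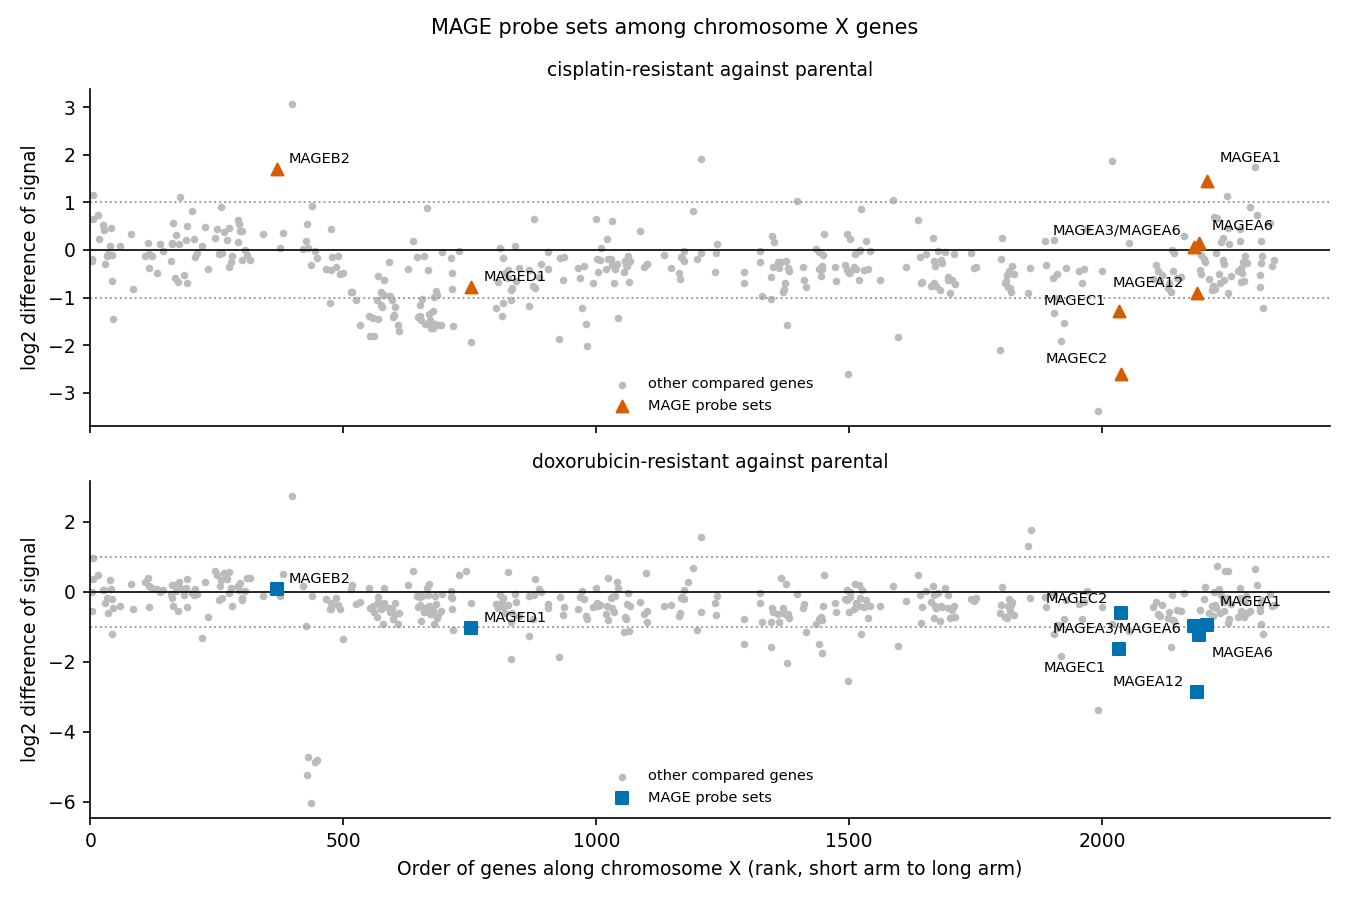
Log2 difference from parental of compared genes on chromosome X by their order along it (grey, 1 brightest probe set per gene), with the 8 MAGE probe sets in colour, for the CisR (top) and DoxR (bottom) array. MAGEC2, MAGEB2 and MAGEA1 in the CisR array, and MAGEA12 and MAGEC1 in the DoxR array, lie more than 2-fold from the median of their neighbours.

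Genes of near-identical sequence next to the members were measured by probe sets that name several of them. Along the chromosome, RefSeq gives the order MAGEA3, CSAG2, MAGEA2B, CSAG1, MAGEA12, CSAG4, MAGEA2, CSAG3 and MAGEA6. A probe set shared by MAGEA2 and MAGEA2B had 25.3 units in the CisR, 21.3 in the DoxR and 256 in the parental array, at least 3.33-fold lower in each subline. A second one had 0.925, 0.837 and 97.6 units, which with the floor is only at least 1.27-fold lower in each subline and was not called. The probe set shared by CSAG2 and CSAG3, germ-cell genes interleaved with this cluster, had 65.0, 18.8 and 178 units, at least 2.32-fold lower in each subline. In the CisR array these shared MAGEA2 and CSAG probe sets were thus under the floor. MAGEA12, which lies inside the same stretch, had 905 units there, above the floor and 1.88-fold lower than parental. MAGEA3 and MAGEA6, at the ends of the stretch, were 1.05-fold (shared set) and 1.11-fold above parental. A probe set shared by the pseudogene MAGEA5P and another annotated locus had 530, 162 and 151 units, 3.51-fold higher in the CisR array.

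Other cancer-testis families on chromosome X were set beside the MAGE genes. GAGE genes form a cluster of near-identical copies expressed in germ cells, and their 4 probe sets had 1512 to 1832 units in the CisR, 44.2 to 70.3 in the DoxR and 1117 to 1306 in the parental array. All 4 were under the floor in the DoxR array and at least 14.5-fold to at least 17.0-fold lower there than in parental, and were within 2-fold of parental in the CisR array. The 3 shared probe sets of SPANX, a family of sperm nuclear proteins, had 2581 to 3800, 128 to 256 and 4244 to 5495 units on the same arrays. They were 21.5-fold to 35.1-fold lower in the DoxR array and 1.45-fold to 1.74-fold lower in the CisR array than in parental. The SPANXB1 probe set had 539, 57.3 and 147 units, which is the order of arrays seen for MAGEA1. It was 3.67-fold higher in the CisR array, and at least 1.91-fold lower in the DoxR array, than in parental. Probe sets of a family bind overlapping transcripts and are not independent.

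SSX genes, which encode transcriptional repressors, did not follow this order. Their 4 shared probe sets above the floor had 94.8 to 127 units in the CisR, 153 to 246 in the DoxR and 103 to 293 in the parental array. None was past 2-fold in the DoxR array, and 2 were lower in the CisR array, at 106 and 127 units, near the floor. For SSX4 and SSX4B, 1 set was at -1.31 and the other at -0.81 as log2 differences. For SSX2 and SSX2B, 1 was at -1.21 and the other at -0.12, so each call rests on 1 of a pair's sets. CT55 had 67.4, 81.5 and 291 units, at least 3.79-fold and 3.57-fold lower than parental in the CisR and DoxR arrays. NY-ESO-1 (CTAG1A and CTAG1B), CT45 and CT47 probe sets were under the floor on every array. A list of 45 cancer-testis genes outside the MAGE family also held genes of other families such as PRAME and BAGE. Only the 20 with a probe set of their own were counted, 13 of them under the floor on each array. The shared probe sets, those of GAGE, SPANX, SSX, CSAG and NY-ESO-1 among them, lie outside these counts and medians. In the CisR array 1 of 6 compared genes was higher and 1 lower, where 2.83% of all genes were higher and 2.58% lower. In the DoxR array 0 of 7 were higher and 1 lower, where 2.98% and 2.74% of all genes were. The medians were 0.02 and -0.02, against 0.02 and 0.00 over all genes, and include bounds set by the floor, such as that of PAGE1. They do not describe cancer-testis genes as a whole.

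**Figure D4:**
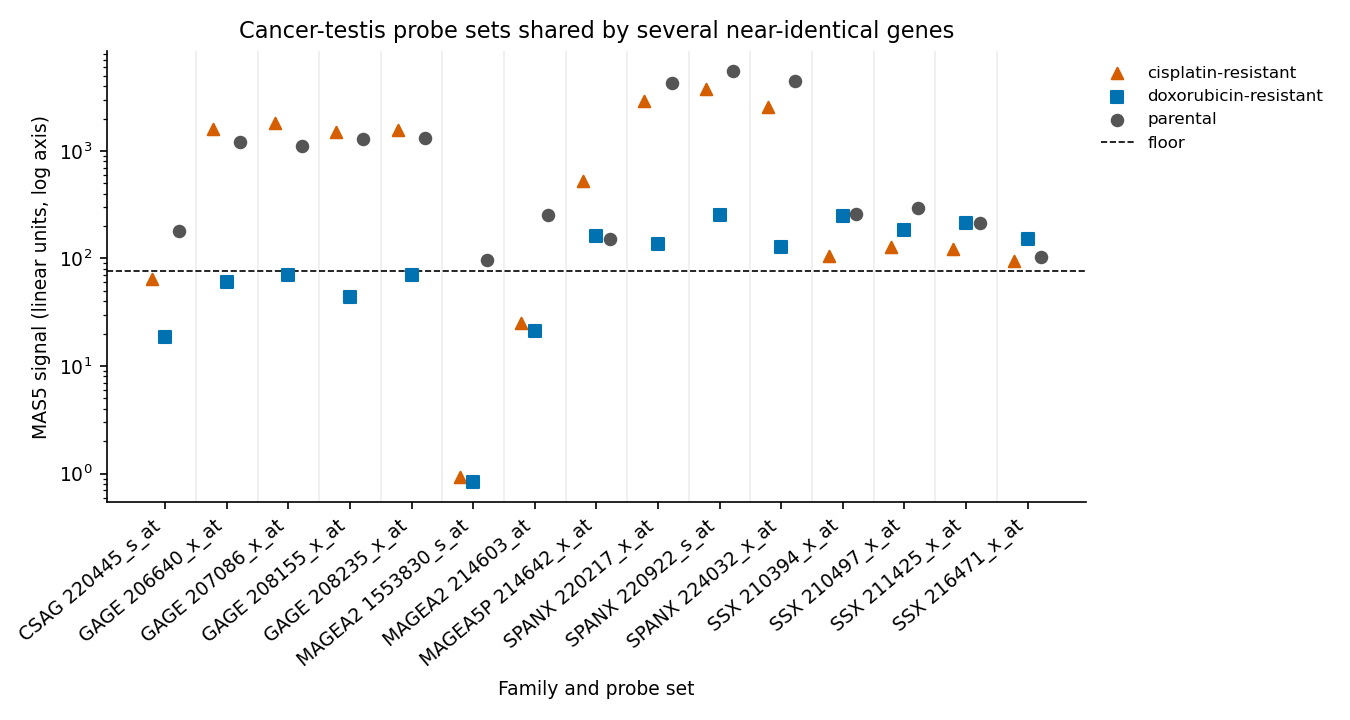
MAS5 signal (log axis) in the CisR (triangle), DoxR (square) and parental (circle) array of the 15 cancer-testis probe sets that are annotated to several near-identical genes and pass the floor (dashed) on an array. The GAGE and SPANX squares lie far below the other 2 arrays, the SSX squares do not, and the MAGEA2 and CSAG points of both sublines lie under the floor.

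Most other MAGE genes were under the floor. Of 27 listed genes, 17 had a probe set of their own, and 12 of these, MAGEA8, MAGEA10, MAGEA11, MAGEB1, MAGEB3, MAGEB4, MAGEB6 and MAGEB18 among them, were under the floor on all arrays, at no more than 44.5 units. MAGEH1, a member of the broadly expressed branch, had 1008 units in the CisR, 162 in the DoxR and 877 in the parental array, and was 5.41-fold lower in the DoxR array than in parental and 6.22-fold lower than in the CisR array. MAGEE1 had 65.3, 93.0 and 154 units and was at least 2.00-fold lower in the CisR array, at the limit of a call, with a log2 difference of -0.81 by its other probe set. MAGED2, MAGEF1 and NSMCE3, which encodes the MAGE subunit of the SMC complex that acts in DNA repair, were within 2-fold in each comparison. Of 5 compared genes, 1 was lower and none higher in each comparison, where 2.58% of all genes were lower in the CisR and 2.74% in the DoxR array against parental, and 3.3% in the DoxR against the CisR array. The medians were -0.44 in the CisR and -0.67 in the DoxR array against parental.

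Ligases and other protein partners of MAGE proteins were described next. TRIM28 had 3252 units in the CisR, 4253 in the DoxR and 4772 in the parental array, within 2-fold. Of 19 compared partners, 1 was higher and none lower in the CisR array, namely LNX1, a RING ligase, with 519 against 110 units in parental, 4.70-fold, and a log2 difference of 0.90 by its other probe set. In the DoxR array 1 was higher and none lower, namely the RING ligase TRIM31, with 3072 against 1309 units in parental, 2.35-fold, and log2 differences of 0.90 and 1.52 by its other probe sets. Between the DoxR and the CisR array, TRIM31 was 2.15-fold higher and LNX1 3.44-fold lower, where 3.05% of all genes were higher and 3.3% lower. The counts against parental, 1 of 19 each, stand beside 2.83% of all genes higher and 2.58% lower in the CisR array, and 2.98% and 2.74% in the DoxR array, and are near that share. The medians over the partners were 0.13 and -0.01 against parental. These counts use the brightest probe set of each gene. Other probe sets passed 2-fold for HUWE1, at -1.15 in the CisR array, and CUL1, at 1.19 in the DoxR array, as log2 differences from parental.

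Genes that write, read or remove DNA methylation or related chromatin marks were taken as a further list. The maintenance methyltransferase DNMT1 had 2368 units in the CisR, 2519 in the DoxR and 2653 in the parental array. The de novo methyltransferase DNMT3B had 617, 322 and 545 units, and the DNMT1 cofactor UHRF1 had 4191, 5817 and 5600. CTCFL, the germ-cell paralog of CTCF, was under the floor on each array. Of 22 compared genes, 1 was higher and none lower in the CisR array, the methylcytosine dioxygenase TET1 at 164 against 80.0 units in parental, 2.05-fold from close to the floor. None of the 22 was past 2-fold in the DoxR array, and the medians were -0.02 and 0.02. These counts are near the shares of all genes given for the partners. Against the CisR array, the DoxR array was higher for the histone methyltransferase EZH2 at 2.11-fold and for the methyl-CpG-binding proteins MBD1 and MBD2 at 2.08-fold and 2.02-fold, 3 of 22 genes, where 3.05% of all genes were. The other 4 probe sets of MBD1 gave log2 differences of 0.45 to 0.61, within 2-fold. By the brightest probe set of each, 0 of 15 HLA class I presentation genes, through which MAGE peptides reach the cell surface, were past 2-fold in any comparison. This count is too small to set apart from the shares of all genes, 2.58% to 3.3% in each direction. The medians were 0.15 in the CisR and -0.00 in the DoxR array against parental. Other probe sets passed 2-fold for ERAP2, at 1.05 in the CisR array, and ERAP1, at 1.21 in the DoxR array. The brightest ERAP1 probe set was at -0.78 there.

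The genes with the most similar pattern were sought among 12975 others for MAGEA12, MAGEC2 and MAGEB2, the members with the largest differences from parental. Likeness was the Euclidean distance between the pairs of log2 differences from parental, which rest on 3 arrays that share the parental one. For MAGEA12 these were the gelatinase MMP2, the phospholipase PLA1A and the protein kinase A inhibitor PKIB, at distances of 0.24, 0.54 and 0.57. MMP2 had 375 units in the CisR, 63.0 in the DoxR and 647 in the parental array, so its DoxR difference is a bound and its distance rests on the floored signal. For MAGEC2 they were the vitamin D catabolic enzyme CYP24A1, the haem oxygenase HMOX1 and the mechanosensitive channel PIEZO2, at 0.13, 0.18 and 0.36, with the CisR signal of PIEZO2 under the floor. CYP24A1 had 781, 3239 and 5135 units on the same arrays. For MAGEB2 they were VWA5A, LINC00648 and the scaffold protein MPP7, at 0.05, 0.09 and 0.09, and VWA5A had 540, 178 and 171 units. LINC00648 and MPP7 were under the floor in the DoxR and parental arrays, so flooring sets their DoxR difference to 0 and makes their CisR difference a bound. The order of such genes by distance is therefore not settled.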

How the data were processed

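Total RNA of 3 lines, 1 array each, was analysed. The deposited values are a linear intensity (MAS5 signal) for every probe set. The submitters' processing notes name MAS5, with no version given in the sources used here. A mean trimmed by 2% at each end came to 500.1 on all arrays, the form that global scaling gives. Scaling assumes similar total signal, and MAS5 subtracts mismatch signal, which makes low values noisy. Detection calls were not used here.

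Groups came from the sample labels. The array has 54675 probe sets. A single gene symbol was given for 41091 and several for 1801, while 11721 are not named here and 62 are controls. Symbols were updated through Entrez identifiers in a RefSeq table of GRCh38.p14, in which 41037 of the 41091 matched and which also gave gene order. Probe sets with several symbols were named for no single gene. Signals were raised to the floor of 76.9 and log2 differences taken between arrays, with probe sets compared where at least 1 array was above the floor. Lists were described per gene by the probe set with the highest mean. No p-value, SE or SD between replicates was computed, since 1 array per line leaves none. The robust SD given for MAGEA1 is the spread of log2 differences over probe sets, not over cultures. The steps were tested on simulated data. Python 3.11.15, pandas 2.3.3 and Biopython 1.88 were used, the last for global promoter alignments.

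The members and lists were chosen with earlier results of these data known. Every member was named, up to 4 genes per list and comparison past 2-fold, and the 3 genes most like each of 3 members. Other genes named as examples of a list, and the shared probe sets of other families, were chosen after the files were seen. The lists covered other MAGE genes, other cancer-testis genes, partners, methylation and chromatin regulators, HLA class I presentation and cell type markers. Alternatives varied the floor (the 25th and 75th percentiles, or none with a pseudocount of 16), scaling, quantile normalization, neighbouring genes, a 3-fold call and 1 value per gene.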

Additional observations from a re-analysis of the deposited data

Results flagged for a closer look

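MAGEA1 lay on opposite sides of parental in the sublines, each time by more than the robust SD of the log2 differences over all compared probe sets (0.382 and 0.383). Its log2 difference was 1.45 in the CisR array and at most -0.96 in the DoxR array, where its signal lay under the floor. The difference between the sublines was not tested, since each is 1 array. The probe set can bind similar transcripts, and both values share the parental array.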

How the results depend on the processing

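No paired analysis was possible because each line has 1 array and the labels carry no replicate numbers. Of 24 MAGE differences (8 probe sets in 3 comparisons), all kept their sign under the 7 alternatives that gave each a value, of which the 3-fold call cannot change a sign. At the 75th percentile floor 17 had a value and kept their sign, while MAGEA1, MAGEC1 and the DoxR value of MAGEB2 against parental had none. Centring and quantile normalization kept all 14 calls, and the GAGE, SPANX, MAGEA2, CSAG and SSX calls too. In the CisR against parental comparison the 2 higher probe sets became 1 at a 3-fold call, 0 at the 75th percentile floor (439.7 units), and 4 with no floor and a pseudocount of 16, where MAGEA9/MAGEA9B and the dimmer MAGEC2 probe set entered. The 2 lower ones became 1 at 3-fold, 1 at the 75th percentile floor and 1 with neighbouring genes subtracted. In the DoxR against parental comparison the 4 lower became 2 at 3-fold and 2 with neighbouring genes subtracted. Between the DoxR and CisR arrays the 5 lower became 3 at 3-fold and 3 at the 75th percentile floor, and the 1 higher, MAGEC2, became 0 at that floor and 0 with the median of its probe sets. At the 25th percentile floor (19.4 units) the difference of MAGEA1 in the DoxR array passed 2-fold, at -1.98 on the log2 scale. Signals near the floor limit what can be said of MAGEA1 and MAGEC1.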
